A study of Mus musculus with 6 samples.

Results

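The BCL-2 family decides whether a cell opens its own mitochondria and dies. A group of 10 of its best known genes was measured on 6 arrays of RNA from mouse osteoclasts, the cells that resorb bone: the survival genes *Bcl2*, *Bcl2l1* and *Mcl1*, the effector genes *Bax* and *Bak1*, and the BH3-only genes *Bcl2l11*, *Bid*, *Bad*, *Bbc3* and *Bmf*. They were found by name in the array annotation, so that these 10 genes stand among 37074 gene names and carry 23 of the 56605 probes for transcripts. All 10 had a probe that was well above background, and 22 of the 23 probes could be tested.

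The study deleted *Ano1*, the gene of a calcium-activated chloride channel, and the arrays compare the RNA of osteoclasts with and without that deletion. The control group was made of cells from 3 *Ano1*fl/fl animals, whose *Ano1* has loxP sites around it and still works. The knockout group came from 3 *Ctsk-Cre;Ano1*fl/fl littermates, which carry the same floxed alleles together with a Cre recombinase driven by the cathepsin K gene. In both groups bone marrow cells were given RANKL, the cytokine that drives osteoclast formation, for 5 days. Cathepsin K is switched on as osteoclasts mature, so precursors and other cells in such a culture can keep their *Ano1*. The marrow donors were young adult mice by the study's culture methods, and the labels give no age. The arrays are called control and knockout arrays here, after these labels.

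As background, BCL-2, BCL-XL (the product of *Bcl2l1*) and MCL-1 hold BAX and BAK in check. BH3-only proteins respond to stress or to loss of growth factors and either occupy the survival proteins or activate BAX and BAK, which then make pores in the outer mitochondrial membrane and release cytochrome c. Osteoclasts are short-lived cells that die by apoptosis, and BIM, the product of *Bcl2l11*, is known as a regulator of their lifespan.

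The probes are 60 bases long, and 4 are printed as the array files give them, chosen because their codons read as part of the known protein, and they show which piece of each transcript was read for a survival gene, a BH3-only gene and an effector. Coordinates are those of the array files, in mouse build mm9, and the sequences run 5′ to 3′ along the transcript. The capitals in the *Bcl2l11* probe mark the codons of the glycine and aspartate that BH3 domains share, the short helix by which BIM binds its partners. The other probes have no capitals.
*Bcl2* A_51_P380013, chr1:108608970-108609029, minus strand: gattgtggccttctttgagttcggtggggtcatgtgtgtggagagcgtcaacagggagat
*Bcl2l1* A_52_P510877, chr2:152655185-152655244, minus strand: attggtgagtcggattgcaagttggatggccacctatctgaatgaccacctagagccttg
*Bcl2l11* A_51_P484880, chr2:127972893-127983988, plus strand: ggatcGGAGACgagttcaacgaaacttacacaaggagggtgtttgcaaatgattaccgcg
*Bax* A_51_P254541, chr7:52721469-52721624, minus strand: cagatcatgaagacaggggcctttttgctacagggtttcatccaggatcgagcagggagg
The stated intervals of the *Bcl2l11* and *Bax* probes, 11096 and 156 bases, are longer than the probes, as for probes that lie across splice junctions.

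All directions are those of the labels, knockout against control. The osteoclast genes *Acp5*, *Ctsk* and *Mmp9*, which the study measured by PCR as lower in knockout cultures of the same kind, were higher on the knockout arrays, so the direction here opposes the study's for these genes. If the labels were exchanged, every sign in the following would turn, with *Bcl2* and *Bcl2l1* lower and *Bmf*, *Bcl2l11* and *Bak1* higher by the same amounts. An exchange of labels was not tested.

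On the knockout arrays the survival genes *Bcl2* and *Bcl2l1* were higher, *Bcl2* by 3.47-fold and *Bcl2l1* by 1.54-fold. The BH3-only genes *Bmf* and *Bcl2l11* were lower, at 0.47 and 0.67 times the control signal. The effectors moved in opposite directions, *Bak1* lower at 0.68 times and *Bax* higher by 1.23-fold. *Mcl1*, *Bid*, *Bad* and *Bbc3* did not pass the test. Each gene is represented here by its brightest probe, taken over all 6 arrays, and was called at an adjusted p under 0.05 from limma over all 31848 probes tested.

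By that rule 3 of the 10 genes were called higher and 3 lower, while 23.0% of all 20645 genes tested were called higher and 28.5% lower. The groups did not overlap for 7 of the 10, against 64.0% of all genes tested. The median log2 difference of the 10 genes was 0.08, and that of all genes was -0.06. As a set of counts the 10 genes thus lay close to the background of the arrays, and the values of single genes are what follows. Among single probes, 10 of the 22 tested were higher and 4 lower, compared with 21.8% and 30.6% of all probes. *Bcl2* and *Bcl2l1* have 8 of these 22 probes, so the probe count weighs those 2 genes most.

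**Figure D1:**
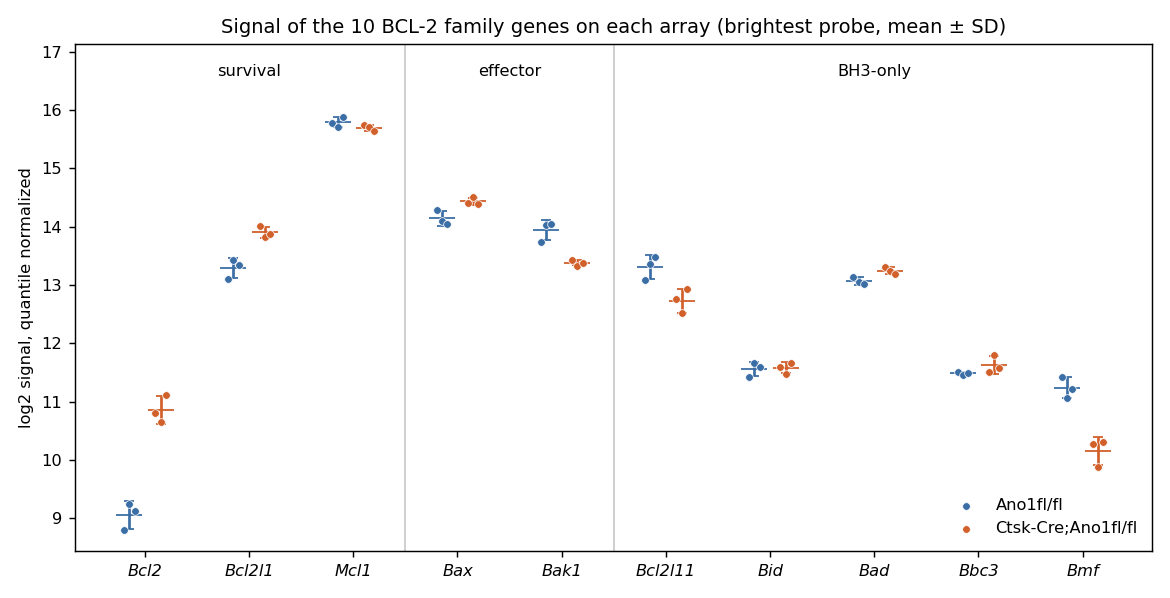
Quantile-normalized log2 signal (vertical axis) of the brightest probe of each of the 10 genes on the 3 *Ano1*fl/fl arrays (blue) and the 3 *Ctsk-Cre;Ano1*fl/fl arrays (orange), with horizontal bars for the mean and error bars for the SD. The groups lie apart for *Bcl2*, *Bcl2l1*, *Bax*, *Bak1*, *Bcl2l11*, *Bad* and *Bmf*, with the widest gap at *Bcl2*; heights of different genes cannot be compared, since each probe has its own brightness.

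The arrays differed between the groups in more than these genes. All 10 osteoclast marker genes (such as *Acp5*, *Ctsk* and *Mmp9*) were higher on the knockout arrays, where the log2 of their summed signal was 18.9 to 19.1 against 17.1 to 17.3. Stromal and osteoblast markers were higher for 11 of 16 and lower for 2 (summed log2 signal 15.8 to 16.6 against 11.7 to 12.1), and B cell markers were higher for 6 of 8 and lower for 1 (14.8 to 15.8 against 12.9 to 13.2). *Igll1*, a B cell precursor gene, was below background on all 6 arrays and was not tested, and the B cell marker called lower was *Vpreb1* (-0.90, limma adjusted p = 0.0034). Of the 8 B cell markers 7 were tested, and of the 16 stromal and osteoblast markers 15. Neutrophil markers were lower for 7 of 13 and higher for 3 (18.3 to 18.5 against 18.6 to 18.7), and mast cell and basophil markers were lower for 4 of 6 (9.51 to 10.8 against 11.7 to 12.1). Macrophage markers, with 4 lower and 1 higher of 11, had nearly the same sum in both groups (19.1 to 19.3 against 19.1 to 19.2), and T and NK cell markers were higher for 3 and lower for 2 of 8 (12.0 to 12.9 against 11.8 to 12.0). *Calcr* among the osteoclast markers, *Lum*, *Pdgfra* and *Postn* among the stromal ones and *Ms4a2* among the mast cell ones passed the filter on dim probes only through the group where they were high. Of the markers well above background on all 6 arrays, 9 of 9 osteoclast markers were higher, 8 of 12 stromal and osteoblast markers were higher and 2 lower, and 3 of 5 mast cell and basophil markers were lower. The part of these differences in the results on BCL-2 family genes was not tested, and in bulk RNA a change in the number of cells of a type cannot be told apart from a change in RNA per cell. The single *Ano1* probe was below background on all 6 arrays, so it cannot check the labels and every direction rests on them.

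*Bcl2*, the founding survival gene of the family, was measured by 3 probes. With A_52_P534870, for transcript variant 1 at chr1:108434793-108434852, the log2 signal was 8.79, 9.25 and 9.12 on the control arrays and 10.80, 10.64 and 11.11 on the knockout arrays. All 3 knockout arrays were above the highest control array. The mean rose from 9.05 ± 0.23 to 10.85 ± 0.24 (SD, n = 3 each), a log2 difference of 1.80 (standard error, SE, 0.17, limma adjusted p = 0.00033). Among the 10 genes this was the largest difference in either direction, and the call held in all 17 alternatives of processing, with differences of 1.35 to 1.90.

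The coding probe printed above, A_51_P380013, gave 7.58, 8.12 and 8.05 on the control arrays and 9.34, 9.18 and 9.67 on the others. It is annotated to transcript variant 2, and whether it reads that variant alone was not tested. The groups of this probe also lay apart, and the log2 difference was 1.48 (SE 0.19, limma adjusted p = 0.0012). The dimmest probe, A_52_P438280 at chr1:108607310-108607369, had 4.81, 5.15 and 5.60 against 5.93, 5.80 and 6.17. Its difference was 0.78 (SE 0.21, limma adjusted p = 0.021). Every *Bcl2* probe was thus higher without overlap of the groups after quantile normalization. Before it the groups overlapped with A_52_P438280, which read 46.56 on knockout array 2 and 58.2 on control array 3.

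*Bcl2l1*, whose long product BCL-XL protects cells and whose short product BCL-XS does the opposite, had 5 probes. Its brightest, A_55_P1974877 at chr2:152606404-152606463, gave 13.10, 13.42 and 13.34 on the control arrays and 14.01, 13.83 and 13.87 on the knockout arrays. The 3 latter arrays all lay above the controls, with a log2 difference of 0.62 (SE 0.11, limma adjusted p = 0.0043). The call was lost when the arrays were not normalized to each other, where the difference was 0.34 (limma adjusted p = 0.18). The coding probe A_52_P510877 read 6.41, 7.07 and 6.75 against 7.75, 7.56 and 7.40, a difference of 0.83 (SE 0.18, limma adjusted p = 0.010).

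The remaining *Bcl2l1* probes pointed the same way. A_66_P122989 was higher by 0.93 (limma adjusted p = 0.00077), although the files give it an interval of 47 bases for a probe of 60. A_55_P2500448 and A_51_P299454 were higher by 0.48 and 0.36 (limma adjusted p = 0.024 and 0.041). None of the 5 probes had overlapping groups after quantile normalization. Before it the groups overlapped with A_55_P1974877, A_51_P299454 and A_55_P2500448. There knockout array 2 read 11908, 91 and 51.24 on a linear scale, against 12653, 109.22 and 53.71 on control array 2. None of the probes was assigned here to the long or the short product.

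**Figure D2:**
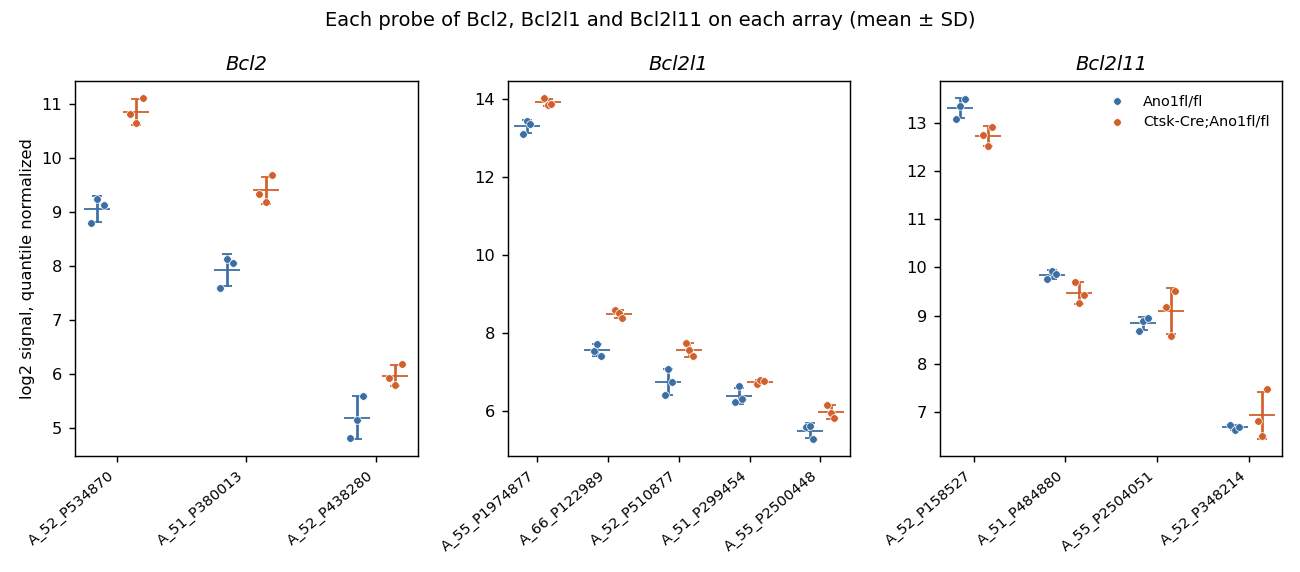
Quantile-normalized log2 signal (vertical axes) of each probe of *Bcl2*, *Bcl2l1* and *Bcl2l11* on the 3 *Ano1*fl/fl (blue) and 3 *Ctsk-Cre;Ano1*fl/fl arrays (orange), with the mean and SD as bars. All 3 *Bcl2* and all 5 *Bcl2l1* probes are higher without overlap, whereas 2 *Bcl2l11* probes are lower and the other 2 have overlapping groups.

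*Mcl1*, a survival gene with a very short-lived product, did not follow them. Its brighter probe, A_55_P2740649, read 15.78, 15.72 and 15.88 on the control arrays and 15.74, 15.70 and 15.64 on the knockout arrays. The groups overlapped, and the difference was -0.10 with a 95% interval from -0.29 to 0.10 (limma adjusted p = 0.34). The other probe, A_51_P238786, had groups that lay just apart and a difference of -0.15 (95% interval -0.33 to 0.03, limma adjusted p = 0.15). With each array scaled to its 75th percentile the brighter probe was called lower (-0.22, limma adjusted p = 0.048), while the median of all probes stood at -0.14 with that scaling and at -0.09 with the quantile step. Without normalization between arrays the difference was -0.40 (limma adjusted p = 0.070), with the median of all probes at -0.32.

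**Figure D3:**
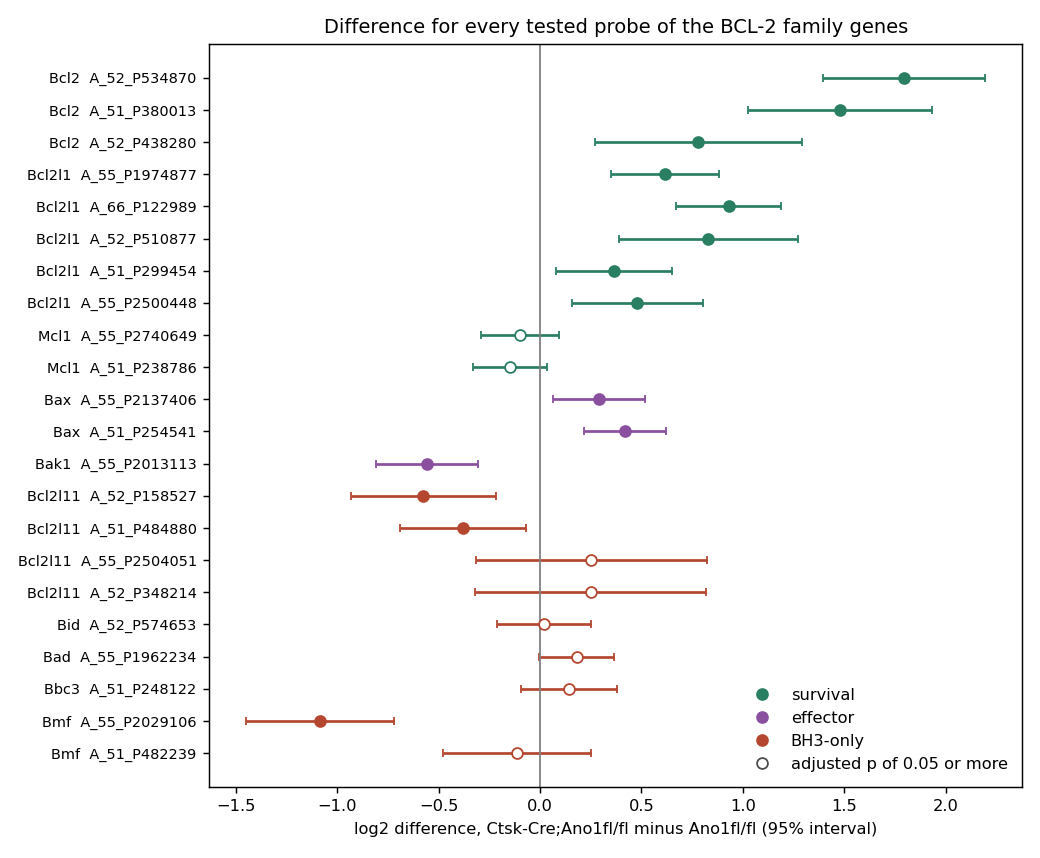
Log2 difference, *Ctsk-Cre;Ano1*fl/fl minus *Ano1*fl/fl, with its 95% interval (horizontal axis) for each of the 22 probes tested, coloured by the role of the gene; open circles did not pass limma's test. The *Bcl2* and *Bcl2l1* intervals lie above 0, the *Mcl1* intervals cross it, and the 4 probes called lower belong to *Bak1*, *Bcl2l11* and *Bmf*.

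The effectors *Bax* and *Bak1*, which both make the mitochondrial pore, differed in direction. *Bak1* had 1 probe, A_55_P2013113 at chr17:27156807-27156866, with 13.74, 14.02 and 14.05 on the control arrays and 13.42, 13.33 and 13.38 on the knockout arrays. The knockout arrays lay close together and below every control. The log2 difference was -0.56 (SE 0.10, limma adjusted p = 0.0052), and it was called lower in all 17 alternatives, at -0.83 to -0.50.

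*Bax* was higher by a small amount. Its brighter probe, A_55_P2137406 at chr7:52717122-52717181, gave 14.29, 14.09 and 14.04 on the control arrays and 14.41, 14.50 and 14.39 on the knockout arrays. The gap between the groups was narrow, and the difference was 0.29 (SE 0.09, limma adjusted p = 0.039). The coding probe A_51_P254541 read 12.88, 12.87 and 12.72 against 13.22, 13.32 and 13.19, with the groups farther apart and a difference of 0.42 (SE 0.08, limma adjusted p = 0.0069). Before quantile normalization the groups of this coding probe overlapped, with 8307.1 on knockout array 2 and 8670.2 on control array 2. The call of the brighter probe was lost in 10 of the 17 alternatives, among them the fit without any 1 array other than control array 1 (0.24 to 0.31), scaling to the 75th percentile (0.19) and no normalization between arrays (0.0090).

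Among the BH3-only genes of the 10 members, *Bmf* had the largest difference. BMF is held on the cytoskeleton through a dynein light chain and is released under stress. The probe A_55_P2029106 at chr2:118354496-118354555 read 11.42, 11.07 and 11.22 on the control arrays and 10.27, 9.88 and 10.31 on the knockout arrays. All 3 of the latter lay below the controls, with a log2 difference of -1.08 (SE 0.15, limma adjusted p = 0.0016). This call held in all 17 alternatives, at -1.30 to -0.60.

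The other *Bmf* probe was dim and did not show that difference. A_51_P482239, which matches the same transcript at chr2:118358312-118358371, had 5.25, 5.01 and 4.97 against 5.18, 4.67 and 5.04. The groups overlapped and the difference was -0.11 (95% interval -0.48 to 0.25, limma adjusted p = 0.56). The lowest log2 signal well above background on these arrays was 3.70 to 4.22, not far under these values. The difference between the *Bmf* probes was not tested.

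*Bcl2l11* encodes BIM and was read by 4 probes for 2 annotated transcripts. For transcript variant 1, A_52_P158527 at chr2:127988051-127988110 gave 13.08, 13.35 and 13.48 on the control arrays and 12.75, 12.51 and 12.92 on the knockout arrays. The groups lay apart by the space between control array 1 and knockout array 3, and the log2 difference was -0.57 (SE 0.15, limma adjusted p = 0.018). The probe over the BH3 codons, A_51_P484880, had 9.76, 9.93 and 9.86 against 9.71, 9.26 and 9.44, again without overlap. Its difference was -0.38 (SE 0.13, limma adjusted p = 0.046). Before quantile normalization the groups of this probe overlapped, with 873.71 on knockout array 1 and 814.88 on control array 1.

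For transcript variant 4 of *Bcl2l11* the values were not lower. A_55_P2504051 read 8.68, 8.89 and 8.95 on the control arrays and 9.19, 8.58 and 9.51 on the others, and A_52_P348214 read 6.74, 6.63 and 6.69 against 6.82, 6.51 and 7.47. With both probes knockout array 2 was the lowest and array 3 the highest of all 6, so the groups overlapped. Their differences were 0.25 and 0.25, with 95% intervals from -0.31 to 0.82 and from -0.32 to 0.82 (limma adjusted p = 0.40 and 0.41). Whether the variants differ in their response was not tested. The *Bcl2l11* call was lost with the mean of all 4 probes (-0.11, limma adjusted p = 0.59), with the methods' t-test (adjusted p = 0.056), and without control array 2 (-0.55) or control array 3 (-0.49).

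*Bid*, *Bad* and *Bbc3* gave no call by their brightest probes. BID is cut by caspase-8 and links death receptors to mitochondria, and its probe A_52_P574653 read 11.42, 11.66 and 11.59 on the control arrays and 11.59, 11.48 and 11.66 on the knockout arrays. These values overlapped almost fully, with a difference of 0.02 (95% interval -0.21 to 0.25, limma adjusted p = 0.87). The second *Bid* probe, A_55_P2719920, was below background on all 6 arrays and was not tested. With the mean of both probes, the dim one included, *Bid* was called lower (-0.41, limma adjusted p = 0.0046).

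BAD is inactivated by survival kinases such as AKT, and its gene read 13.14, 13.04 and 13.02 against 13.31, 13.24 and 13.19. The groups lay just apart, but the difference of 0.18 did not pass (95% interval -0.01 to 0.37, limma adjusted p = 0.093), except with a trend in the variance and robust moderation in limma (adjusted p = 0.036). *Bbc3*, which encodes PUMA, a target of p53, read 11.50, 11.46 and 11.49 against 11.50, 11.80 and 11.57. knockout array 2 stood highest, and the difference was 0.14 (95% interval -0.10 to 0.38, limma adjusted p = 0.27). Without normalization between arrays *Bid*, *Bad* and *Bbc3* were all below 0, at -0.23, -0.11 and -0.11, where the median of all probes was itself -0.32.

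Further members of the family were counted from a list of 16 names, of which 14 had a probe and 12 were tested. On the knockout arrays 7 of the 12 were called higher and 2 lower, against 23.0% and 28.5% of all genes, but *Bok* and *Bik* among the 7 passed the filter on dim probes only through the knockout arrays, where they are high. Of the 10 genes well above background on all 6 arrays, chosen after the data were seen, 5 were higher and 2 lower, with a median difference of 0.10 against -0.06 for all genes tested. *Bok*, a relative of *Bax* and *Bak1*, read 3.43, 4.20 and 4.36 on the control arrays, where it was well above background on 2, and 7.23, 7.01 and 6.85 on the others. With the control values so near background, no fold or test is given for it. The A1 survival genes *Bcl2a1c* and *Bcl2a1d* rose by 2.35 and 2.06 (limma adjusted p = 6.8e-05 and 6.2e-05), but they are near-identical copies and their probes may read each other's RNA. *Bcl2l14* fell by 2.89, from 8.59, 8.64 and 8.60 to 5.92, 5.39 and 5.85 (limma adjusted p = 3.9e-05), and *Bcl2l12* fell by 0.83 (limma adjusted p = 0.00043).

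Downstream of the mitochondrial pore, 3 of 19 tested genes were higher and 6 lower, near the 23.0% and 28.5% of all genes, with a median difference of -0.01. *Birc5* encodes survivin, an inhibitor of apoptosis that also serves in mitosis, and it read 15.60, 15.58 and 15.48 against 13.68, 13.35 and 13.99. It fell by 1.88 (SE 0.16, limma adjusted p = 0.00026). *Htra2*, a mitochondrial protease gene, fell by 0.57 (limma adjusted p = 0.0014). *Vdac1*, *Vdac3* and *Vdac2*, genes of the channels of the outer mitochondrial membrane, rose by 0.34, 0.30 and 0.28 (limma adjusted p = 0.017, 0.012 and 0.019). With 75th percentile scaling or no normalization between arrays, 0 genes of this list were called higher by limma, and the number was 1 to 3 with single arrays left out, the 1 being without control array 3.

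In the death receptor pathway 3 of 9 genes were higher and 3 lower, with a median of -0.02. Over all genes the shares were 23.0% and 28.5%, so these counts, too, do not set the list apart. The receptor genes *Tnfrsf10b*, for the TRAIL receptor, and *Fas* were higher, by 1.42 and 0.75 (limma adjusted p = 0.0013 and 0.010), while *Tnfrsf1a*, for a TNF receptor, was not called (-0.02, limma adjusted p = 0.89). *Cflar*, whose product c-FLIP blocks caspase-8, rose by 0.87 (limma adjusted p = 0.00069). The signalling genes *Casp8*, *Tradd* and *Fadd* fell by 0.39, 0.37 and 0.36 (limma adjusted p = 0.020, 0.0079 and 0.013).

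Of 24 genes whose products regulate or bind the family, 6 were higher and 9 lower, beside 23.0% and 28.5% of all genes, with a median of -0.12. The survival kinase gene *Pim2* read 5.12, 5.14 and 5.39 on the control arrays and 9.97, 9.39 and 9.68 on the knockout arrays, a rise of 4.47 (SE 0.16, limma adjusted p = 1.3e-05). *Pim1* rose by 1.38 and *Ddit3*, the stress gene for CHOP, by 1.75 (limma adjusted p = 0.00016 and 3.2e-05). *Trp53*, the gene of p53, fell by 0.87, *Usp9x*, whose product stabilizes MCL-1, by 0.76, and *E2f1*, a cell cycle factor, by 0.61 (limma adjusted p = 0.0019, 0.013 and 0.0028). The number called lower in this list was 5 to 7 with single arrays left out, the 5 being without control array 3 or knockout array 3, and 6 without control array 2.

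**Figure D4:**
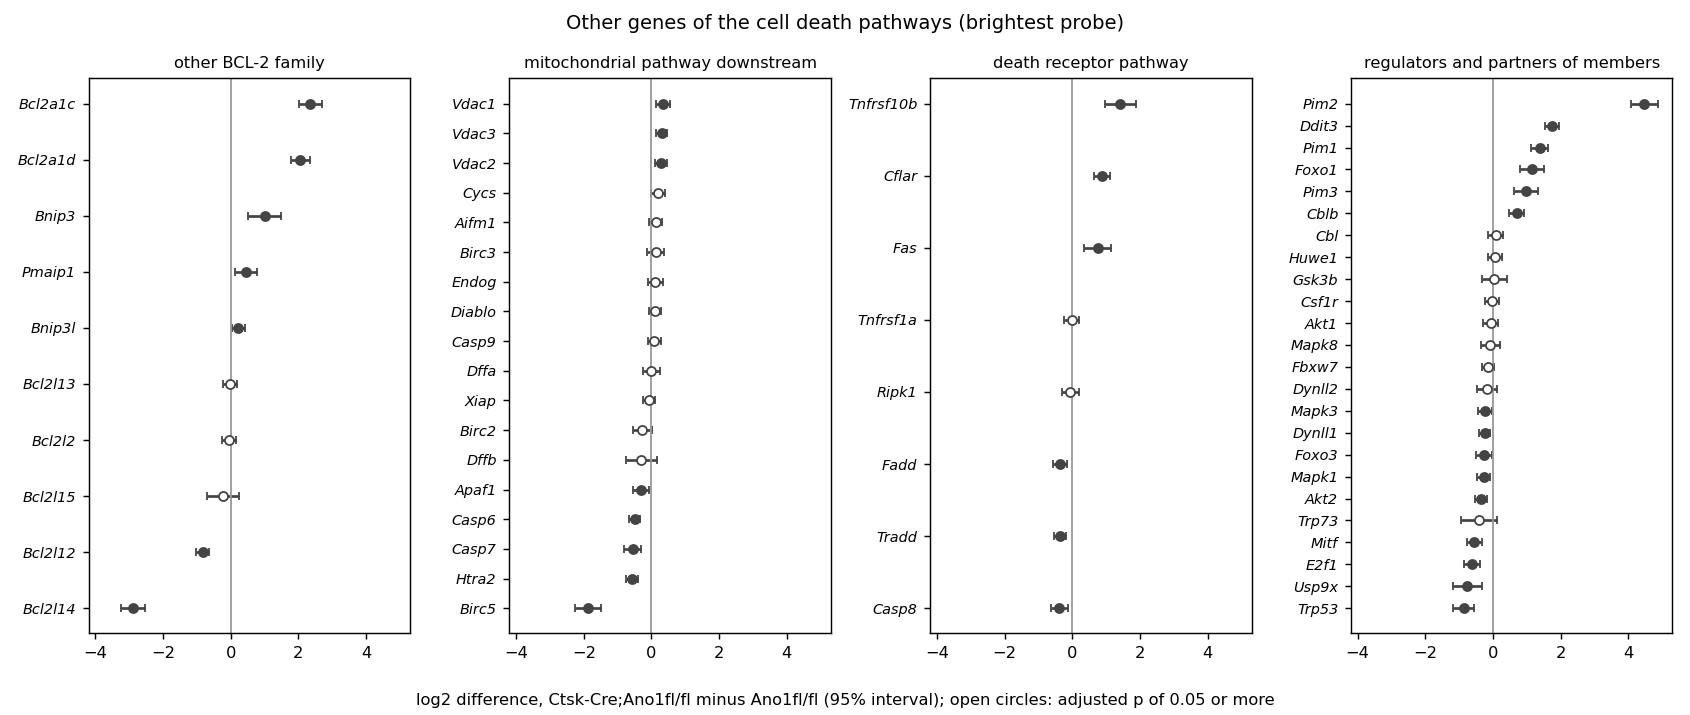
Log2 difference, *Ctsk-Cre;Ano1*fl/fl minus *Ano1*fl/fl, with its 95% interval (horizontal axis) for the genes of the 4 lists around the BCL-2 family that were well above background on all 6 arrays, by brightest probe, except 1 gene that is not reported here; open circles did not pass limma's test. *Pim2* and *Bcl2a1c* stand farthest to the right and *Bcl2l14* and *Birc5* farthest to the left, while most genes downstream of mitochondria lie near 0.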

How the data were processed

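RNA of osteoclasts from 3 control (*Ano1*fl/fl) and 3 knockout (*Ctsk-Cre;Ano1*fl/fl) mice, separate animals per the study's methods, was labelled with Cy3 and read on 6 one-colour Agilent mouse arrays on 1 slide in 1 scan. The deposited files hold spot intensities on a linear scale from Agilent Feature Extraction 10.7.1.1, named in the submitters' processing notes. The processed intensity that the authors deposited is corrected for background and trends within an array, not normalized between arrays. The series matrix equalled the median spot intensities (largest difference 0 over 62973 values) and served as an alternative.

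Of 59305 transcript spots, an array had 33480 to 34951 well above background and 0 saturated; the number of arrays limits the precision. Processed signals were log2 transformed with no pseudocount, outlier spots were left out, and arrays were quantile normalized, the algorithm the methods name. Spots of a probe were averaged, and 14 probes with a missing value were dropped. Probes well above background (in at least 0.5 of their spots) on all 3 arrays of at least 1 group were tested with limma 3.58.1 in R 4.3.3, with Benjamini-Hochberg adjustment over 31848 probes and a threshold of 0.05. The fit was also run on simulated data with known changes in some probes. Their noise was independent for each probe, with no effect shared across an array or a group. With 3 arrays against 3, a two-sided exact permutation test cannot give p under 0.1. Files were read with version 1.17.8 of data.table and with pandas 2.3.3, and plots were drawn with Python 3.11.15 and matplotlib 3.10.9.

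The genes named are the 10 members with every probe and, from each of 4 lists of related genes, the 3 largest called rises and falls, except that 1 gene is not reported here. *Tnfrsf1a*, *Bik* and single marker genes were named after their values were seen. Members, lists and marker genes were chosen with earlier results of these data known. All 14 RefSeq accessions of member probes carried the same symbol in the RefSeq gene annotation (GRCm38.p6), which was used for names only. No genome sequence or annotation of mm9 was used here, so exon and UTR positions are not given. Probes are called coding from their codons alone, and junctions are inferred from the stated intervals. Alternatives changed the scaling, background correction, source of the intensities, filter, probe rule, test, replicate block and arrays used, 1 at a time.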

Additional observations from a re-analysis of the deposited data

How the results depend on the processing

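*Bcl2*, *Bak1* and *Bmf* kept their direction and call in all 17 alternatives. Without normalization between arrays only 1 of the 10 genes (*Bcl2*) and 3 probes were called higher, the median of all probes moved from -0.09 to -0.32, and 24.2% of all called probes were higher rather than 41.6%. With no filter on dim probes 6 member probes were higher, as were 6985 of all 56591 probes tested with that setting. When each gene's probes were averaged, *Bcl2* was at 1.35, *Bmf* at -0.60 and *Bcl2l11* at -0.11. The methods' t-test, after Benjamini-Hochberg adjustment, called 6 higher and 2 lower, and over all probes 6262 higher and 8287 lower. With each array left out in turn, 6 to 9 probes were higher (6 without knockout array 1) and 2 to 4 lower (2 without control array 2 or control array 3), and 2 or 3 genes were called in either direction. Over all 31848 probes, 5834 to 6231 were then higher and 7914 to 8713 lower.

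*Bid* turned below 0 with 75th percentile scaling (-0.045), without normalization (-0.23) and with the mean of its probes (-0.41, limma adjusted p = 0.0046), which takes in the probe below background. It ranged from -0.048 to 0.071 with 1 array left out. *Bad* (-0.11) and *Bbc3* (-0.11) turned below 0 without normalization. The cause of these changes was not tested.

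Arrays of both groups carry replicate numbers 1 to 3. The deviations of same-numbered arrays correlated at -0.02, -0.08 and -0.09, and those of differently numbered arrays at -0.08 to 0.16. With 3 arrays a group these values cannot settle whether same-numbered arrays were paired. With the replicate block 2 genes were called higher (*Bax* was lost, adjusted p = 0.08) and 3 lower, and over all probes 5988 were higher and 8162 lower.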
